A study of Homo sapiens with 2 samples.

Results

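The genes described here are 9 neuropeptide precursor genes (CRH, GAL, SST, CALCA, CALCB, TAC1, PENK, NPY and CARTPT) and CRHBP, which encodes a protein that binds the peptide made from CRH. They were found by their symbols, and all 10 were among the 61487 genes of both libraries. Neuropeptides are made as larger precursor proteins, processed and stored in dense-core vesicles, and act mostly on G protein-coupled receptors. Subsets of the serotonin neurons (SNs) of the raphe nuclei are known to carry peptides beside serotonin, among them substance P, a product of TAC1, and thyrotropin-releasing hormone in the medulla.

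The study asked whether the transcription factor FOXA2 is needed for human SNs to form from pluripotent stem cells. The group labelled WT was the embryonic stem cell line WA09 (H9) with EGFP knocked in at TPH2, the gene of the serotonin-making enzyme of the brain. The group labelled FKO carried the same knock-in on a FOXA2 knockout background, made by an indel that shifts the reading frame, in clones selected by drug resistance. Both were taken through induced differentiation to day 42, when EGFP-positive cells were sorted, and 1 library per group was made with the 10x Genomics 3′ kit. The dose of purmorphamine, an agonist of the SHH pathway used in the differentiation, is not given per library in the sources used here. In some other cultures of the study WT cells received a low dose and FKO cells a high one, while in others each genotype received both doses. Dose may therefore differ with genotype here too, and their parts in any difference between the libraries cannot be told apart.

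The WT-labelled library held 11052 barcodes with 123064653 unique molecular identifiers (UMIs), each standing for 1 captured transcript, and the FKO-labelled library held 8806 barcodes with 70588747 UMIs. Kept cells had at least 1000 UMIs, at least 500 genes, at most 10% mitochondrial UMIs and a doublet score below the highest ones. They numbered 5749 in the WT-labelled library (52.0%) and 6978 in the FKO-labelled library (79.2%), with medians of 12460 and 6926 UMIs. The mitochondrial limit alone was exceeded in 40.4% of the WT-labelled barcodes and 13.5% of those labelled FKO. The libraries shared 21 barcodes as deposited and 5 among the kept cells. Levels are pooled CPM, the UMIs of a gene per 1000000 UMIs of all genes over the kept cells. A 3′ count gives 1 tag per molecule, so CPM were not divided by gene length. Each group has 1 library and so no replicates, which cells cannot stand in for. No test was therefore made, and the exact 95% intervals given here cover only counting error.

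FOXA2 (ENSG00000125798), the targeted gene, had 334 UMIs or 4.35 CPM in the WT-labelled library and 1264 UMIs or 21.8 CPM in the FKO-labelled library. On the relative log2 scale introduced below, FKO stood 1.85 above WT (1.68 to 2.03). The transcript was thus not lower in the library labelled as the knockout. A 3′ count cannot reveal an indel, so this level does not show whether the protein was made. In other cultures given purmorphamine, the paper reports FOXA2 staining in WT but not in FKO cells. Of the 5 floor plate markers, which include FOXA2, SHH and CORIN were lower in the FKO-labelled library at any level, with relative log2 ratios of -1.58 (-1.85 to -1.32) and -2.55 (-3.04 to -2.10), and NTN1 and SPON1 were within 2-fold. Their summed level was 46.7 CPM in the WT-labelled library and 65.4 CPM in the FKO-labelled library, with SPON1 the most abundant at 27.8 CPM in each and none at 0. The libraries are therefore called by their labels, and every direction below rests on those labels. The markers of SNs were present in both. FEV, the transcription factor that marks postmitotic SNs, had a UMI in 97.9% of the kept WT-labelled cells and 91.0% of those labelled FKO. TPH2 had a UMI in 71.6% and 52.5%. None of the 10 serotonergic markers looked at was at 0 in either library, and their summed level was 2928 CPM in the WT-labelled library and 2468 CPM in the FKO-labelled library, with FEV the most abundant. FEV itself stood at 1584 and 908 CPM, a relative log2 ratio of -1.28 (-1.29 to -1.26), the only one of the 10 more than 2-fold lower, while HTR1A, with 22 and 112 UMIs, was more than 2-fold higher. With no median taken off, FEV stood at -0.80 and none of the 10 was more than 2-fold lower. LMX1B (2.17-fold), SLC6A4 (2.07-fold), SLC18A2 (2.64-fold) and HTR1A (6.76-fold) were then more than 2-fold higher.

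Across the 10 neuropeptide genes, the FKO-labelled library had more TAC1, CRHBP and PENK and far less GAL than the WT-labelled library, with most PENK in a few collagen-rich cells. Ratios of FKO over WT are given on the log2 scale relative to the median of all 9681 genes with at least 10 CPM in either library, since that median was itself 0.47. Only 5 of the 10 reached that level, 3 of them more than 2-fold higher (TAC1, CRHBP and PENK), against 5.71% of all genes tested, and 2 more than 2-fold lower (GAL and CRH), against 9.68%, with a median of 1.47. Among these 5, TAC1 alone reached it in both libraries. At any level NPY was also higher, by a lower bound, and SST and CARTPT were also lower, which makes 4 of the 10 higher and 4 lower, while CALCA and CALCB were neither. Of the 28460 genes of any level with a ratio, 25.1% were more than 2-fold higher and 10% more than 2-fold lower. With no median taken off, GAL and SST were the only members more than 2-fold lower, a setting for which no share of all genes is given.

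**Figure D1:**
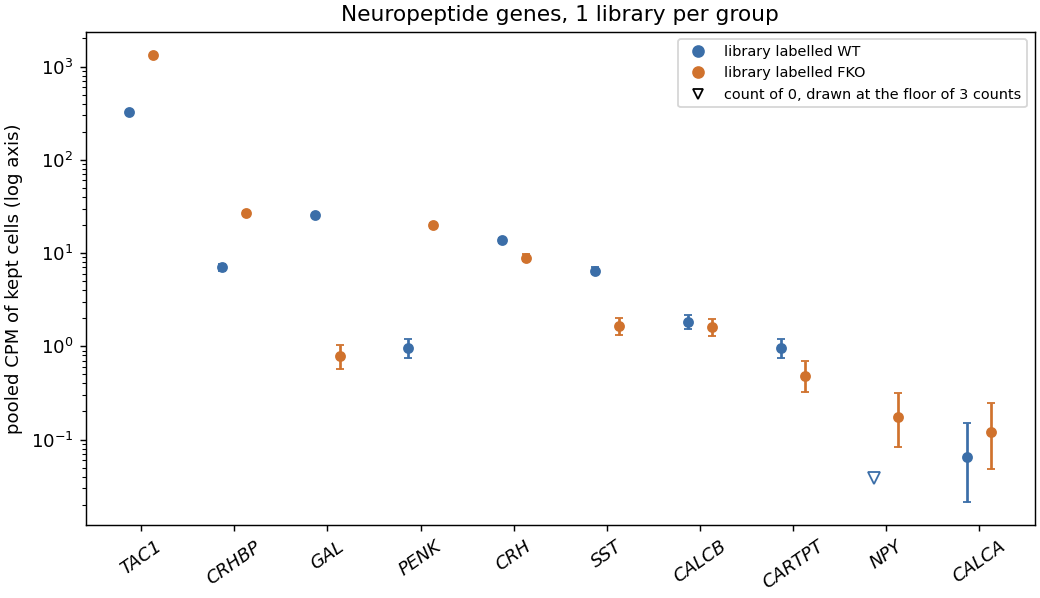
Pooled CPM of each gene over the kept cells (log axis) in the WT-labelled library (blue) and the FKO-labelled library (orange), with exact Poisson 95% intervals, hidden by the point where narrow. The open triangle stands at the floor of 3 counts for NPY, which had 0 UMIs in the WT-labelled library. TAC1 is the most abundant in both libraries, at 326 and 1331 CPM, and GAL shows the widest gap downwards, from 25.3 to 0.778 CPM.

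TAC1 (ENSG00000006128, GRCh38 chromosome 7, 97731908 to 97740472, plus strand) encodes the precursor of the tachykinins substance P and neurokinin A. It had 25056 UMIs or 326 CPM (322 to 330.3) in the WT-labelled library and 77057 UMIs or 1331 CPM (1322 to 1341) in the FKO-labelled library. Its relative log2 ratio was 1.56 (1.53 to 1.58), at percentile 98.5 of all genes tested. TAC1 was the most abundant of the 10 genes in both libraries, and the difference lay in how many cells carried it as well as in how much they held.

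A high expresser is here a kept cell with 5 or more UMIs of a gene. TAC1 had 1295 of them in the WT-labelled library, or 22.5% of the kept cells (21.5 to 23.6), and 3932 in the FKO-labelled library, or 56.3% (55.2 to 57.5). These shares hung on the limits chosen, at 12.6% and 59.7% with a mitochondrial limit of 5%, 13.3% and 36.3% with high set at 10 UMIs, and 3.01% and 18.7% with 5 UMIs after thinning, the FKO-labelled share being the larger in all 10 alternatives, which were chosen for TAC1 after the data were seen. When every cell was thinned at random to 2000 UMIs, leaving out 43 WT-labelled cells and 116 labelled FKO that were shallower, TAC1 was detected in 25.9% (24.7 to 27.0) and 68.2% (67.1 to 69.3) of the cells. With each cell at its own depth, 0.818% of the WT-labelled cells and 3.10% of those labelled FKO had at least 50 UMIs. The few cells with at least 100 UMIs differed less. Cells with at least 100 UMIs numbered 13 in the WT-labelled library and 31 in the FKO-labelled library, and the highest cell held 343 and 254 UMIs. The 1% of cells richest in TAC1 held 19.6% of its UMIs in the WT-labelled library, where the median gene had 8.13%, and 9.18% in the FKO-labelled library, where the median gene had 10.5%. TAC1 was thus concentrated in few cells in the WT-labelled library and spread like the median gene in the FKO-labelled library.

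**Figure D2:**
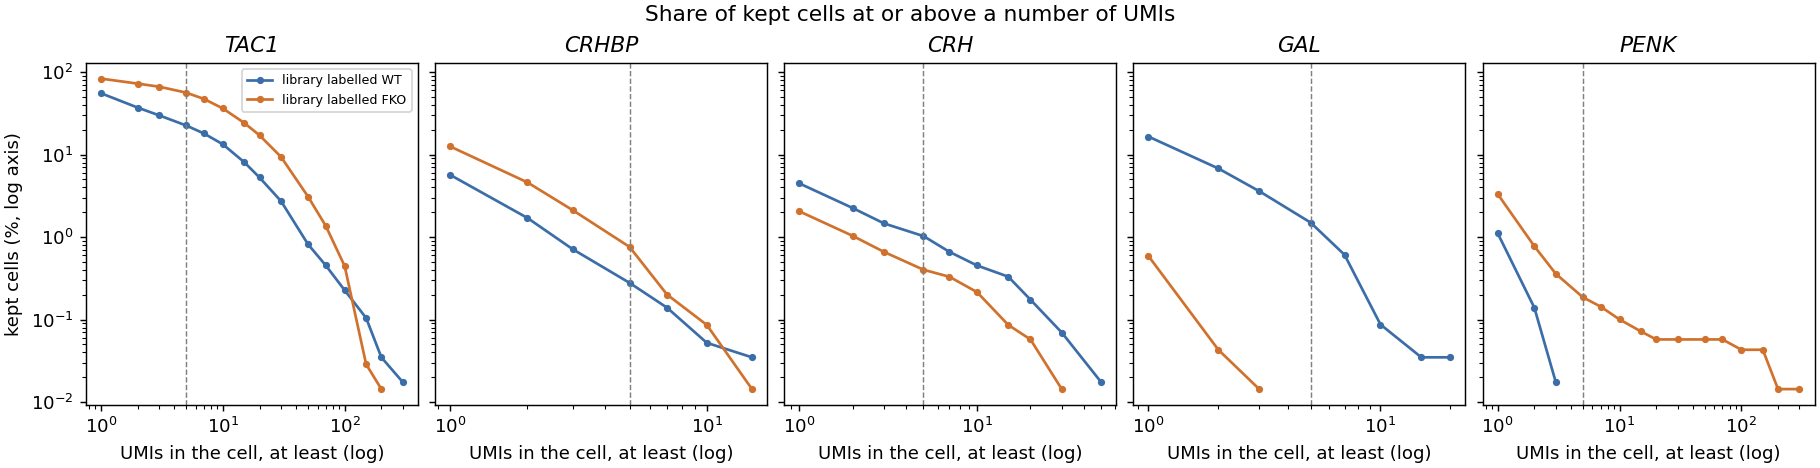
Share of kept cells (log axis) with at least a given number of UMIs (log axis) of TAC1, CRHBP, CRH, GAL and PENK in the WT-labelled library (blue) and the FKO-labelled library (orange), each cell at its own depth. The dashed line marks the 5 UMIs of a high expresser. The TAC1 curves stand at 22.5% and 56.3% there and cross above 100 UMIs, GAL of the FKO-labelled library ends at 3 UMIs, and PENK of that library runs on to a cell of 338 UMIs.

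RNA set free from broken cells can enter any droplet, so the same shares were taken in cells with markers of other types. These were collagen cells, with 10 or more summed UMIs of COL1A1, COL1A2 and COL3A1, and cycling cells, with 5 or more summed UMIs of 5 cell cycle genes. They were not free of serotonergic transcripts. After thinning, FEV was found in 20% (5.73 to 43.7) of the collagen cells and 25.5% (13.9 to 40.3) of the cycling cells labelled WT, and in 24.3% (16.8 to 33.2) and 31.3% (21.6 to 42.4) of those labelled FKO, against 89.6% and 77.3% of the cells of neither class. At full depth 32 of the 115 collagen cells and 27 of the 84 cycling cells labelled FKO had 5 or more FEV UMIs, so these classes give no pure measure of free RNA. In the WT-labelled library, thinned TAC1 detection was 10.0% (1.23 to 31.7) in the 20 collagen cells, with a median depth of 26486 UMIs. It was 6.38% (1.34 to 17.5) in the 47 cycling cells, with a median depth of 22541 UMIs, and 26.1% in the cells of neither class. In the FKO-labelled library it was 35.7% (26.9 to 45.1) in the 115 collagen cells, with a median depth of 10425 UMIs. It was 45.8% (34.8 to 57.1) in the 84 cycling cells, with a median depth of 12700 UMIs, and 69.0% in the cells of neither class. TAC1 was thus detected less often in both classes of the FKO-labelled library and in the cycling cells labelled WT than in the other cells, while the interval of the 20 collagen cells labelled WT holds the share of the others. The share in them was nevertheless larger in the FKO-labelled library, where 38 of the 115 collagen cells were TAC1 high expressers. The part of free RNA in that share was not tested. Without both classes the relative log2 ratio of TAC1 was 1.56 (1.54 to 1.58).

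By serotonergic markers, TAC1 was higher in the FKO-labelled library in each class with at least 100 cells in both libraries. In cells with both a FEV and a TPH2 UMI, numbering 4101 and 3592, TAC1 stood at 295 and 1482 CPM, a log2 ratio of 1.85 (1.83 to 1.88) relative to the median of the genes within that class. In cells with FEV alone, numbering 1528 and 2760, it stood at 408 and 1235 CPM, a relative log2 ratio of 1.14 (1.10 to 1.18). In the 104 and 553 cells with neither it was 231 and 510.2 CPM, a relative log2 ratio of 0.69 (0.48 to 0.91). Of these 3 classes, the gap between the libraries was widest in the cells with both markers. It was wider still in the collagen and cycling classes, with 18 and 1122 UMIs and a relative log2 ratio of 4.003 (3.34 to 4.76) in collagen cells, and 35 and 1342 UMIs and a ratio of 4.30 (3.81 to 4.82) in cycling cells. In the 16 and 73 cells with TPH2 alone the direction turned, with a relative log2 ratio of -2.53 (-2.78 to -2.28), but 343 of the 351 UMIs labelled WT came from 1 cell.

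**Figure D3:**
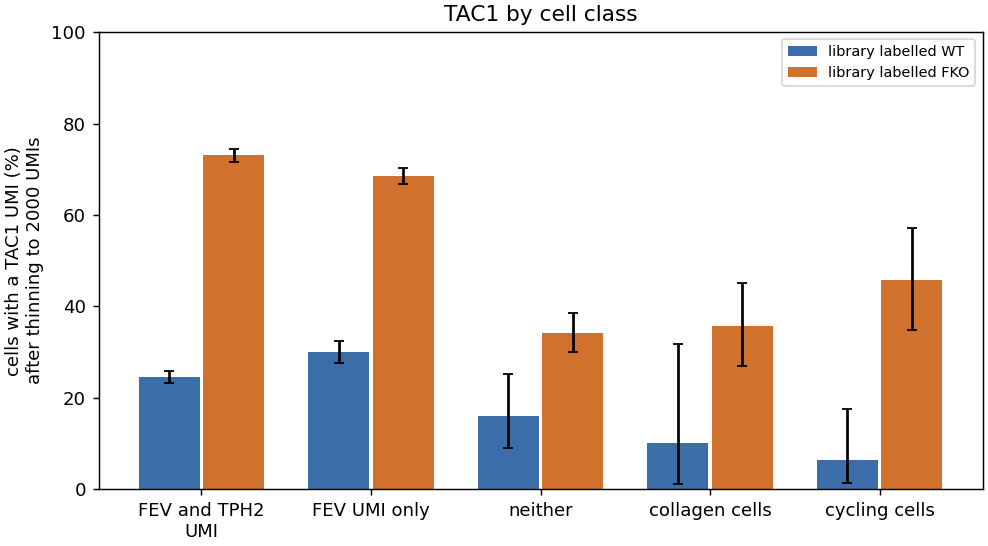
Share of cells with a TAC1 UMI after thinning to 2000 UMIs, by class, in the WT-labelled library (blue) and the FKO-labelled library (orange), with Clopper-Pearson 95% intervals. Collagen and cycling cells also fall in one of the FEV and TPH2 classes, and the class with TPH2 alone is not drawn. In the FKO-labelled library the bars stand at 73.1% in cells with FEV and TPH2 and at 35.7% in collagen cells.

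TAC1 high expressers were cells with FEV in both libraries. At full depth FEV had a UMI in 99.4% of them in the WT-labelled library, against 97.5% of the other cells, and in 97.4% against 82.9% in the FKO-labelled library. The share with TPH2 was 67.8% against 72.7% in the WT-labelled library and 60.5% against 42.3% in the FKO-labelled library. High expressers were deeper cells, however, with a median of 14017 UMIs against 11986 in the WT-labelled library and 7887 against 5799 in the FKO-labelled library. After thinning, TPH2 was detected in 21.5% (19.3 to 23.8) of the WT-labelled high expressers against 30.04% (28.7 to 31.4) of the other cells. Among the FKO-labelled cells it was 24.4% (23.1 to 25.8) against 22.7% (21.2 to 24.3), a difference not detectable at this depth. TPH2 was thus detected less often in the TAC1 high expressers of the WT-labelled library, and its excess in those of the FKO-labelled library was no longer seen at equal depth. Thinned FEV stayed higher in the high expressers, at 92.1% against 87.9% in the WT-labelled library and 81.6% against 68.5% in the FKO-labelled library. Counted over all 9 precursors, a cell with 5 or more UMIs of any of them was found in 24.4% (23.3 to 25.5) and 56.5% (55.4 to 57.7) of the kept cells. Of these cells, FEV was present in 99.4% and 97.2% and TPH2 in 68.4% and 60.3%. Most of them were TAC1 cells, 1295 of the 1403 labelled WT and 3932 of the 3946 labelled FKO. Of all kept cells, 2.44% and 0.659% were high for a precursor other than TAC1.

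SLC17A8, which encodes a vesicular glutamate transporter found in part of the SNs of the raphe, was lower where TAC1 was high. In TAC1 WT-labelled high expressers it stood at 72.5 CPM against 200.7 CPM in the other cells, a log2 ratio of -1.47 (-1.55 to -1.39). In those labelled FKO it stood at 38.6 against 278 CPM, a log2 ratio of -2.85 (-2.93 to -2.77). At the same depth of 2000 UMIs, SLC17A8 in the WT-labelled library stood at 217 CPM in cells with 0 TAC1 UMIs, 112 CPM at 1 UMI and 48.8 CPM at 2 to 4 UMIs, and it was 137 CPM (100.4 to 182) in the 172 cells with 5 or more. Along the same bins of the FKO-labelled library it was lower at each step, at 345, 147, 35.7 and 19.5 CPM. The limits of these bins were chosen after the data were seen. TPH2 was also lower from bin to bin in the WT-labelled library, with 220.0 CPM in the first and 110 CPM in the last, and showed no steady course in the FKO-labelled library, with 185 and 167 CPM. SLC18A2, the vesicular monoamine transporter, went from 32.3 to 64.4 CPM in the FKO-labelled library and was lowest, at 5.81 CPM on 2 UMIs, in the top WT-labelled bin. SLC6A4, the serotonin transporter, went the other way in the FKO-labelled library, with 57.5 CPM in the first bin and 41.0 CPM in the last. In the WT-labelled library it stood at 22.9 and 23.3 CPM. DDC stood at 264 and 282 CPM in these WT-labelled bins and at 184 and 269 CPM in those labelled FKO. MAOB stood at 193 and 125 CPM in the WT-labelled library and at 129 and 172 CPM in the FKO-labelled library. FEV stood at 1612 CPM in the first bin and 1515 CPM in the last of the WT-labelled library, and at 822 and 983 CPM in those of the FKO-labelled library.

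**Figure D4:**
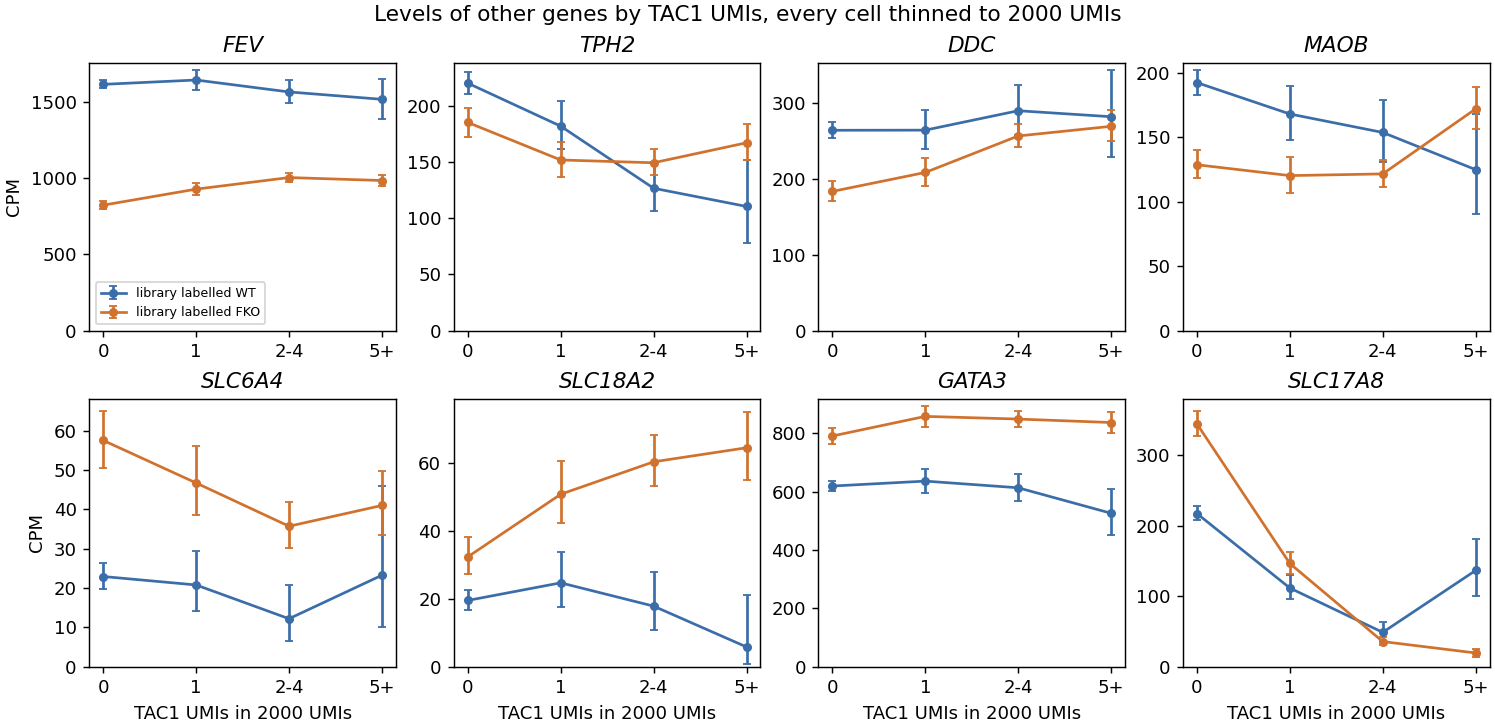
CPM of 8 genes in cells grouped by their TAC1 UMIs after every cell was thinned to 2000 UMIs, in the WT-labelled library (blue) and the FKO-labelled library (orange), with exact Poisson 95% intervals. SLC17A8 of the FKO-labelled library goes from 345 CPM in the first bin to 19.5 CPM in the last. The last bin holds 172 WT-labelled cells and 1281 labelled FKO.

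The genes most like TAC1 were those with the highest log2 ratio of CPM in its high expressers over the other cells, taking the lower of the libraries, among 5572 genes with at least 20 CPM in the high expressers of both. Among them were HS6ST3, a heparan sulfate sulfotransferase, at 0.91, ARPP21, a phosphoprotein regulated by cyclic AMP, at 0.88, the Wnt pathway gene DKK2 at 0.85 and the glycine receptor subunit GLRA2 at 0.78. Each was spread over at least 389 of the high expressers in either library.

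GAL (ENSG00000069482, GRCh38 chromosome 11, 68683779 to 68691175, plus strand) encodes galanin, a peptide that mostly inhibits the neurons it acts on. It had 1940 UMIs or 25.3 CPM (24.1 to 26.4) in the WT-labelled library and 45 UMIs or 0.778 CPM (0.567 to 1.04) in the FKO-labelled library. The relative log2 ratio of -5.50 (-5.96 to -5.07) put it at percentile 0 of all genes tested. In the WT-labelled library, 16.5% of the cells had a GAL UMI and 86 cells (1.496%) were high expressers, with up to 29 UMIs. That share hung on the limits chosen, at 3.601% with high set at 3 UMIs, 0.0870% at 10 UMIs, 0.296% at 5 UMIs per 10000 UMIs of the cell, 0.869% with all deposited barcodes, 0.882% at a mitochondrial limit of 5% and 0.0175% after thinning, alternatives chosen for GAL after the data were seen. Of the FKO-labelled cells, 0.588% had a UMI, the highest cell held 3, and no cell was a high expresser, which allows a share of up to 0.0430% as 3 of 6978 cells, or 0.0529% by the exact interval. Galanin transcripts were therefore rare in the FKO-labelled library, and the gap was as wide at equal depth, where thinned detection was 3.87% (3.39 to 4.41) against 0.0874% (0.0321 to 0.190). Thinned GAL was found in 0 of the 20 collagen cells and 0 of the 47 cycling cells labelled WT, with upper interval bounds of 16.8% and 7.55%.

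The 86 GAL high expressers all had FEV, and 64 of them (74.4%) had TPH2. After thinning, TPH2 was found in 19.8% of them (12.0 to 29.8) against 28.2% of the other cells, a difference within these intervals. SLC17A8 was low in them, at 18.1 CPM against 171 CPM. TH, the enzyme that makes the precursor of dopamine, was high, at 46.7 CPM against 16.1 CPM, a log2 ratio of 1.54 (1.19 to 1.87). The genes most like GAL, within the WT-labelled library and among 5583 candidates, were SST, UTS2, CRH, NGEF and STC1. The first of these, SST, rests on 1 cell with 440 of 441 UMIs, and UTS2, the urotensin 2 precursor, on 1 cell with 89 of 94. CRH followed with a log2 ratio of 2.73 over 25 cells, then NGEF, a guanine nucleotide exchange factor, with 2.50 over 35 cells, and STC1, a secreted stanniocalcin, with 2.44 over 84 cells.

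CRH (ENSG00000147571) encodes corticotropin-releasing hormone, the peptide that starts the hormonal stress response. It had 1058 UMIs or 13.8 CPM (12.96 to 14.6) in the WT-labelled library and 516 UMIs or 8.92 CPM (8.16 to 9.72) in the FKO-labelled library. The relative log2 ratio was -1.10 (-1.26 to -0.95), and it was -0.63 with no median taken off, so that the scaling decides the 2-fold call. High expressers numbered 59 (1.03%) in the WT-labelled library and 28 (0.401%) in the FKO-labelled library, with up to 50 and 30 UMIs. The shares were 0.452% and 0.215% with high set at 10 UMIs, and 0.0351% and 0.0291% after thinning, alternatives chosen for CRH after the data were seen. CRH was a gene of few, rich cells: the top 1% of cells held 70.5% of its UMIs in the WT-labelled library and 85.5% in the FKO-labelled library. All 59 WT-labelled high expressers had FEV and 51 had TPH2, and 27 and 22 of the 28 labelled FKO did. A high expresser held a median of 8 UMIs in the WT-labelled library and 10 in the FKO-labelled library, where the limit of 5 UMIs sets the lower end of both. Thinned detection was 1.14% (0.880 to 1.45) and 0.729% (0.541 to 0.960), with intervals that overlap. Of collagen and cycling cells, 1 FKO-labelled collagen cell was a CRH high expresser. Most like CRH, within the WT-labelled library and among 5673 candidates, were ENSG00000269993 with 23 of its 24 UMIs in 1 cell, TNFRSF12A with 2.53 over 12 cells, NGEF with 2.44 over 19 cells, STC1 with 2.39 over 55 of the 59 cells, and GAL with 2.28 over 36 cells.

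CRH and GAL met in the same cells. In the WT-labelled library, 10 cells were high for both, or 16.9% of the CRH high expressers and 11.6% of the GAL high expressers, where the product of the shares gives 0.883 cells. The observed number was 11.3 times that product (5.43 to 20.8). After thinning, GAL was detected in 22.0% (12.3 to 34.7) of the CRH high expressers against 3.68% (3.21 to 4.21) of the other cells, so the excess was also seen at equal depth. The FKO-labelled library had no GAL high expresser. TAC1 was counted in the same way. Of the WT-labelled cells, 14 of the 59 CRH high expressers were high for TAC1 against a product of 13.3 cells, and 19 of the 86 GAL high expressers against 19.4. Of the FKO-labelled cells, 25 of the 28 CRH high expressers (89.3%, 71.8 to 97.7) were high for TAC1, where 56.3% of all kept cells were. Thinned TAC1 was found in 92.9% (76.5 to 99.1) of them against 68.1% (67.0 to 69.2) of the other cells, and in the WT-labelled library in 28.8% (17.8 to 42.1) against 25.8%. The observed number of cells high for CRH and TAC1 was 1.05 times the product in the WT-labelled library and 1.58 times in the FKO-labelled library. The 28 CRH high expressers labelled FKO cap the multiple there, so the multiples have unlike ranges. As a share, 23.7% (13.6 to 36.6) of the CRH WT-labelled high expressers were high for TAC1, where 22.5% of all kept cells were. The difference between the libraries was not tested.

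CRHBP (ENSG00000145708, GRCh38 chromosome 5, 76952713 to 76981158, plus strand) encodes the secreted protein that binds corticotropin-releasing hormone and limits its action. Its direction was opposite to that of CRH. It had 543 UMIs or 7.07 CPM (6.49 to 7.69) in the WT-labelled library and 1572 UMIs or 27.2 CPM (25.8 to 28.5) in the FKO-labelled library, a relative log2 ratio of 1.47 (1.33 to 1.61). CRHBP was detected in 5.67% and 12.5% of the kept cells, and 16 (0.278%) and 53 (0.760%) were high expressers. Thinned detection was 0.981% (0.742 to 1.27) and 4.14% (3.68 to 4.64). Among FKO-labelled cells it was 0.870% (0.0220 to 4.75) in collagen cells and 4.82% (1.33 to 11.9) in cycling cells, against 4.19% (3.72 to 4.70) in cells of neither class. None of the 53 high expressers labelled FKO was a collagen or cycling cell. By serotonergic markers, CRHBP was higher in the FKO-labelled library in cells with FEV and TPH2, with a relative log2 ratio of 1.77 (1.60 to 1.95), and in cells with FEV alone, with 1.30 (1.02 to 1.58). In the 104 and 553 cells with neither the direction turned, with 32 and 23 UMIs and a relative log2 ratio of -2.98 (-3.82 to -2.16), and 2 of the 16 WT-labelled high expressers were among these cells.

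CRHBP went with TAC1. Of the 53 CRHBP FKO-labelled high expressers, 51 were high for TAC1 (96.2%, 87.0 to 99.5), and of the 16 labelled WT, 9 were (56.3%, 29.9 to 80.2). Thinned CRHBP was detected in 6.35% (5.61 to 7.16) of the TAC1 FKO-labelled high expressers against 1.19% (0.830 to 1.65) of the other cells. In the WT-labelled library it was 2.55% (1.76 to 3.56) against 0.521% (0.331 to 0.781). CRHBP and TAC1 thus shared cells in both libraries at equal depth too. CRH and CRHBP, ligand and binding protein, were both high in 0 WT-labelled cells, where the product of the shares gives 0.164, and in 2 FKO-labelled cells, 9.40 times the product of 0.213 (1.14 to 34.0). After thinning, CRHBP was found in 0 of the 59 CRH WT-labelled high expressers (0 to 6.06%) against 0.992% of the other cells, and in 5 of the 28 labelled FKO, or 17.9% (6.06 to 36.9), against 4.08% (3.63 to 4.58). The genes most like CRHBP in the FKO-labelled library, among 6944 candidates, were the nicotinic receptor subunit CHRNA6 (2.74 over 15 cells), RTL1 (2.38 over 9 cells), the kinase PRKCQ (2.19 over 16 cells), XACT (15 of 25 UMIs in 1 cell) and STC1 (2.06 over 30 cells).

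**Figure D5:**
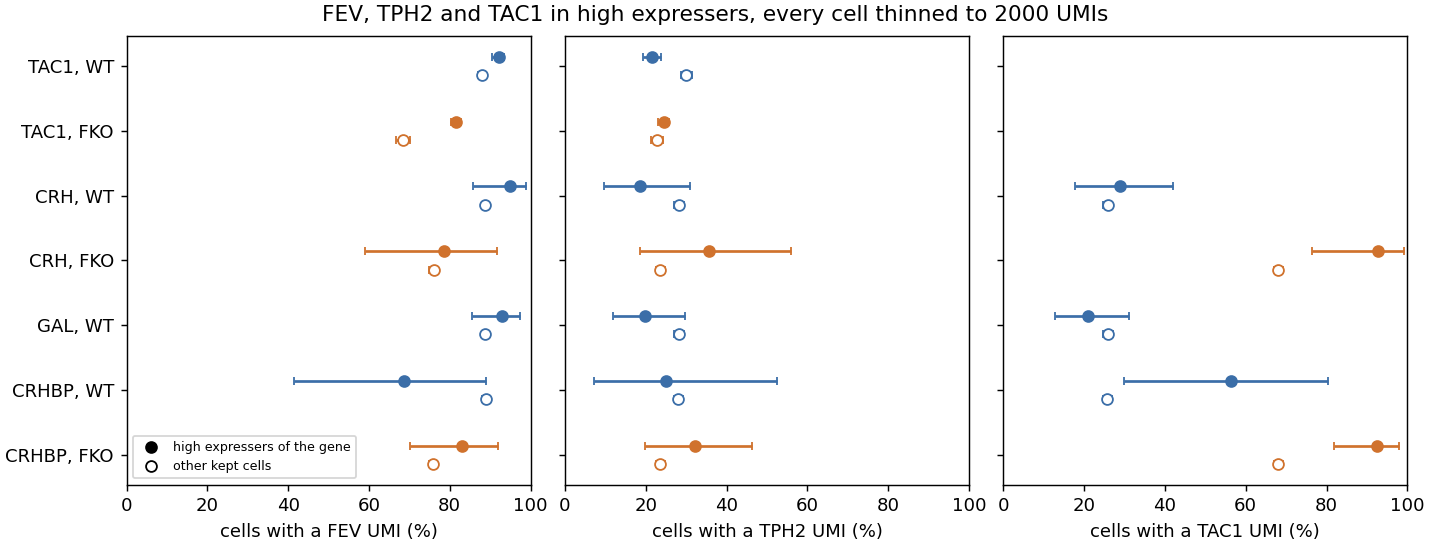
Share of cells with a FEV, TPH2 or TAC1 UMI, after thinning to 2000 UMIs, in the high expressers of a gene (filled) and in the other kept cells (open) of the WT-labelled library (blue) and the FKO-labelled library (orange), with Clopper-Pearson 95% intervals. TAC1 stands at 92.9% in CRH high expressers and 92.5% in CRHBP FKO-labelled high expressers, above 68.1% and 68.0% in the other cells.

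PENK (ENSG00000181195) encodes the precursor of the enkephalins, opioid peptides. It had 73 UMIs or 0.950 CPM in the WT-labelled library, with no high expresser, and 1145 UMIs or 19.8 CPM in the FKO-labelled library, with 13 high expressers. Its relative log2 ratio of 3.91 (3.56 to 4.27) rested largely on few cells. Collagen cells held 870 of the 1145 UMIs and 11 of the 13 high expressers, and 3 cells alone held 61.6% of the UMIs. In the 13 high expressers COL1A1 stood at 3996 CPM against 59.7 CPM in the other cells, and FEV at 395 against 910.3 CPM. The whole list of 5 mesenchymal markers had 3 genes more than 2-fold higher in the FKO-labelled library and none lower, and its summed level was 36.5 CPM in the WT-labelled library and 227 CPM in the FKO-labelled library. Its most abundant gene was LUM at 12.1 CPM in the former and COL1A2 at 85.2 CPM in the latter, and none of the 5 was at 0. Markers of other cells went both ways. At any level 25.1% of all genes with a ratio were more than 2-fold higher and 10% more than 2-fold lower. Of 3 cholinergic and 3 catecholamine markers, 2 each were more than 2-fold lower and none higher. Of 5 cycling markers 1 was higher and 2 lower. Of 3 sensory neuron markers 1 was higher and none lower, and of 3 GABA neuron markers none was either. Of 4 glial markers 2 were more than 2-fold higher and none lower, with a summed level of 1.08 and 9.28 CPM. OLIG2 was the most abundant in the WT-labelled library. SOX10 was the most abundant in the FKO-labelled library, with 412 UMIs there and 0 in the other, and GFAP had 3 and 12 UMIs. Of 4 markers of LIM-homeodomain glutamatergic neurons 2, LHX1 and SLC17A6, were more than 2-fold higher and none lower, with a summed level of 7.20 and 22.4 CPM, ISL1 the most abundant in the WT-labelled library and LHX1 in the FKO-labelled library. The part of such cells in the differences between the libraries was not tested. Outside collagen and cycling cells, PENK had 73 UMIs against 270, a relative log2 ratio of 1.86 (1.49 to 2.26). Those 270 UMIs lay in 212 cells with 2 high expressers, so most of these cells held 1 UMI, and the part of free RNA from the richest cells was not tested. Within cells with both FEV and TPH2 it was 2.10 (1.69 to 2.53), at 1.10 and 6.56 CPM, but this class held 6 of the 13 high expressers. In cells with FEV alone it was 5.77 (4.88 to 6.84), on 10 and 801 UMIs. In cells with neither it was 2.82 by a lower bound, on 0 and 120 UMIs. FEV had a UMI in 10 of the 13 high expressers. A gene on the opposite strand overlaps PENK and had 20 and 133 UMIs, and its part in the PENK count was not tested.

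SST, the somatostatin precursor gene, had 495 UMIs in the WT-labelled library and 95 in the FKO-labelled library, a relative log2 ratio of -2.45 (-2.78 to -2.13) with most UMIs of each library in 1 cell. In the WT-labelled library 1 cell held 440 UMIs (88.9%), and in the FKO-labelled library 1 cell held 72 (75.8%). Without the 3 richest cells of each library, 24 and 7 UMIs were left, and the relative log2 ratio was -1.84. Within cells with both FEV and TPH2 the direction turned, with 46 and 82 UMIs and a relative log2 ratio of 1.11 (0.57 to 1.66), but the 82 UMIs lay in 6 cells, among them the cell of 72. SST thus rests on too few cells for a statement about its level across SNs.

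The remaining members were rare. CALCA and CALCB, genes of calcitonin and of the calcitonin gene-related peptides, had 5 and 140 UMIs in the WT-labelled library and 7 and 93 in the FKO-labelled library. Their relative log2 ratios were 0.42 (-1.45 to 2.42) and -0.66 (-1.05 to -0.27). They overlap on opposite strands in GENCODE release 29. CALCB had 5 WT-labelled high expressers and 2 labelled FKO, and CALCA none. CARTPT, the precursor gene of the cocaine- and amphetamine-regulated transcript peptides, had 73 and 28 UMIs, a relative log2 ratio of -1.45 (-2.13 to -0.80), with 19 of the 73 UMIs in 1 cell. That ratio turned to 0.67 after thinning, on 3 and 8 cells with a UMI. NPY, the neuropeptide Y gene, had 0 UMIs in the WT-labelled library and 10 in the FKO-labelled library, spread over 9 cells, which makes it at least 4.42-fold higher against the floor of 3 counts, before the median is taken off. On the relative log2 scale this is 1.67, where the counting interval begins at 1.10, and without the 3 richest cells it was 0.934. At 1 UMI per cell or little more, the counts of CALCA and NPY show no cell rich in either transcript.

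Several peptides in the same cell were uncommon. High expressers of 2 precursors numbered 37 in the WT-labelled library (0.644%) and 32 in the FKO-labelled library (0.459%), and those of 3 precursors 4 and 0. By level, the order in the WT-labelled library was TAC1, GAL, CRH, CRHBP, SST, CALCB, then PENK and CARTPT with 73 UMIs each, CALCA and NPY. CRHBP and SST were neighbours whose intervals overlapped there, 6.49 to 7.69 and 5.89 to 7.04 CPM, and so did those of CALCA and NPY. In the FKO-labelled library the order was TAC1, CRHBP, PENK, CRH, SST, CALCB, GAL, CARTPT, NPY and CALCA. SST and CALCB overlapped there, 1.33 to 2.01 and 1.30 to 1.97 CPM, as did GAL and CARTPT, 0.567 to 1.04 and 0.321 to 0.699 CPM, and NPY and CALCA.

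Receptors for these peptides were mostly scarce. Of 25 receptor and receptor-partner genes listed for the members, 3 reached 10 CPM in either library. Of these, 0 were more than 2-fold higher and 1 more than 2-fold lower, against 5.71% and 9.68% of all genes tested. At any level 7 of the 25 were more than 2-fold higher and 3 lower, while 9 were neither and 6 had no ratio. All genes of any level gave the 25.1% and 10% above, which count only genes with a ratio. SSTR2, a somatostatin receptor, stood at 117 CPM in the WT-labelled library and 179 CPM in the FKO-labelled library, a relative log2 ratio of 0.14 (0.10 to 0.18). RAMP2, a partner of the calcitonin receptor family, stood at 64.0 and 35.6 CPM, a relative log2 ratio of -1.32 (-1.39 to -1.24). OPRK1, an opioid receptor, stood at 5.68 and 10.1 CPM, a relative log2 ratio of 0.36 (0.18 to 0.54). The tachykinin receptors were near 0, with 1 and 8 UMIs of TACR1, 3 and 2 of TACR2 and 8 and 66 of TACR3, named after their values were seen. The SNs of both libraries thus held much TAC1 transcript and few transcripts of its receptors.

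Among 35 other neuropeptide precursor genes, 6 reached 10 CPM in either library, 1 of them more than 2-fold higher and 2 more than 2-fold lower, against the 5.71% and 9.68% of all genes tested, with a median relative log2 ratio of -0.68. VGF, a secreted granin-like precursor, stood at 344 CPM in the WT-labelled library and 216 CPM in the FKO-labelled library, a relative log2 ratio of -1.15 (-1.18 to -1.12). HCRT, the orexin precursor gene, stood at 15.1 and 53.4 CPM, a relative log2 ratio of 1.35 (1.25 to 1.45), although a UMI of it was found in 15.9% of the kept WT-labelled cells and only 5.67% of those labelled FKO. NMU, the neuromedin U gene, stood at 26.1 and 10.2 CPM, a relative log2 ratio of -1.83 (-1.96 to -1.70). TRH, the thyrotropin-releasing hormone gene, stood at 8.80 and 16.0 CPM, a relative log2 ratio of 0.39 (0.24 to 0.53). At any level, 7 of the 35 were more than 2-fold higher and 8 more than 2-fold lower, while 15 were neither and 5 had no ratio. Of all genes of any level with a ratio, 25.1% were higher and 10% lower.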

How the data were processed

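Single-cell RNA-seq of TPH2-EGFP-sorted cells was analysed for 1 library labelled WT and 1 labelled FKO. Values deposited by the authors were raw counts of UMIs by gene and barcode on GRCh38, made with Cell Ranger (7.0 in the submitters' notes, 7.1.0 in the file header) and not normalized. Cells were filtered as given in the report. Scrublet in scanpy 1.11.5 scored doublets, and since its own threshold marked 0 barcodes, the highest scores were removed at 0.8% per 1000 barcodes (977 labelled WT, 620 labelled FKO). CPM, ratios and exact Poisson, Clopper-Pearson and conditional binomial intervals were computed with numpy 2.4.6, scipy 1.17.1 and pandas 2.3.3, and checked on simulated data. Genes at 0 were set to a floor of 3 counts for ratios, and a gene with 3 counts or fewer in each library got none. Thinning used random seed 1. Gene positions came from GENCODE release 29. The genes and lists were chosen with earlier results of these data known. Genes named in the text are the 10 members, FOXA2, the most abundant 2 to 4 of each list, the cell type markers in high expressers, and the 5 most like each member with at least 50 high expressers. Of these, 1 gene is not reported here. Alternatives changed cell limits, doublets, depth, scaling, pooling and the high expresser limit. Bulk RNA-seq was not analysed here.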

Additional observations from a re-analysis of the deposited data

How the results depend on the processing

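Of 16 other settings tried, 2 were chosen after seeing the data: leaving out collagen and cycling cells, and leaving out the 3 cells richest in each gene. For the shares of cells high for TAC1, CRH or GAL alone, all alternatives were chosen after seeing the data. In all settings run for them, TAC1 (1.40 to 2.27), CRHBP (1.27 to 1.94) and PENK (1.86 to 6.09) stayed above and GAL (-6.09 to -5.02), CRH (-1.45 to -0.63), SST and CALCB stayed below the median of all genes. The shares of cells moved most. In the order share of kept cells high for any precursor, then FEV share and TPH2 share of those cells, each for WT and FKO where it moved, the values were as follows. After thinning, the cells high for a precursor were 3.08% and 18.8%, with FEV in 88.1% and 81.9% and TPH2 in 17.0% and 25%. With high set at 3 UMIs they were 33.3% and 66.8%, with FEV in 96.6% (FKO) and TPH2 in 71.1% and 58.1%. With high set at 10 UMIs they were 13.7% and 36.4%, with FEV in 97.8% (FKO) and TPH2 in 64.5% (FKO). With 5 UMIs per 10000 UMIs of the cell they were 18.0% and 62.9%, with FEV in 98.8% and 96.0% and TPH2 in 64.4% and 58.2%. At a mitochondrial limit of 20% they were 22.8% and 54.7%, with FEV in 94.99% (FKO) and TPH2 in 58.5% (FKO). At a limit of 5%, which left 340 WT-labelled cells, they were 14.4% and 60.0%, with FEV in 100% and 99.02% and TPH2 in 64.6% (FKO). With all deposited barcodes they were 22.2% and 53.8%, with FEV in 96.4% and 94.96%. With doublets kept, the FKO share was 58.3%, with TPH2 in 62.2%. At the 5% limit, NPY and CARTPT had 0 WT-labelled UMIs and a bound that gives no direction, and of the other 8 members 3 stood above the median and 5 more than 2-fold below it. With no median taken off, 2 members were more than 2-fold lower. The share of all genes past 2-fold is not given for these settings, so the counts of members have no background there. CARTPT turned to 0.67 after thinning, on 3 and 8 UMIs, and CALCA, at 0.42, turned to -1.98 at the 5% limit, -0.51 at the 20% limit and -0.22 with all deposited barcodes. For the other changes the cause was not tested. Depth limits CALCA, NPY, CARTPT and CALCB, which had 140 UMIs or fewer per library.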

Other observations

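TH, which makes the precursor of dopamine, was higher at full depth in the high expressers of several peptide genes. In CRH high expressers it stood at 41.7 CPM against 16.4 CPM in the other WT-labelled cells, a log2 ratio of 1.35 (0.91 to 1.76), and at 21.6 against 7.40 CPM in those labelled FKO, a log2 ratio of 1.55 (0.58 to 2.37) on 12 UMIs. After thinning this was not detectable, with TH in 5.08% (1.06 to 14.1) of the CRH high expressers against 2.82% of the others in the WT-labelled library and in 0% (0 to 12.3) against 1.10% in the FKO-labelled library. In CRHBP high expressers it stood at 45.4 against 16.7 CPM in the WT-labelled library and at 29.3 against 7.18 CPM in the FKO-labelled library, with thinned shares of 6.25% (0.158 to 30.2) against 2.83% and 7.55% (2.09 to 18.2) against 1.04%. In TAC1 high expressers the log2 ratio was 0.23 (0.06 to 0.41) in the WT-labelled library and 1.30 (0.94 to 1.68) in the FKO-labelled library, with thinned shares of 2.86% against 2.83% and 1.45% (1.10 to 1.88) against 0.612% (0.363 to 0.965).

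TAC1 high expressers were found among barcodes over the mitochondrial limit as well. Among barcodes with 10% to 20% mitochondrial UMIs they made up 18.3% of 2499 labelled WT and 36.6% of 730 labelled FKO, at median depths of 10311 and 3076 UMIs. Above 20% the order turned, with 22.0% (19.8 to 24.3) of 1391 labelled WT and 16.2% (11.9 to 21.2) of 260 labelled FKO. Median depths there were 4033 and 1983 UMIs. In the WT-labelled library the TAC1 level was higher in each band of mitochondrial UMIs than in the one before, at 196 CPM up to 5%, 333 CPM from 5% to 10%, 373 CPM from 10% to 20% and 761 CPM above, while in the FKO-labelled library it was 1314, 1346, 1434 and 1085 CPM. These levels are without the median taken off, and the gap between the libraries was widest up to 5% and narrowest above 20%. The part of RNA quality in the difference between the libraries was not tested. Outside the named lists' rule, OPRD1, an opioid receptor gene, had 9 UMIs in the WT-labelled library and 98 in the FKO-labelled library, singled out after its values were seen.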
